A study of Mus musculus with 8 samples.

Results

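The genes described here are 42 chaperone genes of the heat shock network, taken by their symbols from the 40840 genes counted in each library. They comprise the heat shock factors, the cytosolic HSP70s with their HSP110, J-domain, BAG and ubiquitin ligase partners, the HSP90s with their co-chaperones, the small heat shock proteins and 4 subunits of the CCT/TRiC chaperonin. Hspa9, Hspd1 and Hspe1, whose products work in mitochondria, and Hspa13, whose product is found in the endoplasmic reticulum, were listed with them although they are not cytosolic. To monitor the effect of O-GlcNAc transferase (OGT) inhibition on the transcriptome of myofibroblastic hepatic stellate cells, the study isolated stellate cells from livers of male wild-type C57BL/6J mice aged 15 to 18 weeks and sorted them on the autofluorescence of their retinol. The cells turned into myofibroblasts (pMF-HSCs) over 7 days on plastic in medium with 5% serum. They then received either DMSO alone (control, 4 cultures) or the OGT inhibitor OSMI-1 at 50 µM (OGTi, 4 cultures) for 24 h. The mice carried no engineered allele in either group, and DMSO was the vehicle. Whether a culture came from 1 mouse or from pooled mice is not given in the sources used here, and OSMI-1 was the only compound used on these cells, so that an effect of the compound and an effect of lower OGT activity cannot be told apart.

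Heat shock proteins are molecular chaperones that hold, refold or hand over unfolded proteins. In resting cells HSP70 and HSP90 keep heat shock factor 1 inactive, and an excess of unfolded protein releases it to bind heat shock elements in the promoters of chaperone genes. O-GlcNAc, the sugar added by OGT to nuclear and cytosolic proteins, is itself known to rise under heat and other stresses.

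Libraries held 30068876 to 37372420 expected counts, the number of read pairs that RSEM assigns to a gene and that need not be whole. Levels are given as TPM, a transcript abundance scaled by RSEM, which corrects for gene length and allows genes to be compared. Differences are log2 fold changes of counts (log2 FC, OGTi against control) with their standard errors from an edgeR model that pairs the cultures of the same replicate number, as the study did, and a gene was called changed at a Benjamini-Hochberg adjusted p of at most 0.05 over the 19963 genes with at least 10 counts in all. The labels describe biological replicates, so p-values measure the spread between these 4 pairs of cultures. The 10 stellate and myofibroblast genes looked at summed to 3637 to 6667 TPM in control and 3036 to 7153 TPM in OGTi, and 2 of them fell, Pdgfrb (log2 FC -1.68, adjusted p = 0.00154) and Lrat (-1.78, adjusted p = 0.00232). The other 8 were not called. Of these, Col1a1, Col1a2 and Col3a1 were lower and Tagln was higher in each of the 4 pairs (log2 FC -0.85, -0.54, -0.72 and 0.53), and Hand2, Des, Reln and Acta2 had log2 FC of -0.84, -0.19, 0.04 and 0.05. In contrast, the 6 hepatocyte genes looked at summed to at most 0.98 TPM. The 6 macrophage genes summed to 16.9 to 36.1 TPM in control and 29.3 to 71.6 TPM in OGTi, of which Cd68 made up most and rose (log2 FC 1.5, adjusted p = 0.00154). Csf1r lay between 2.22 and 6.66 TPM, and Adgre1, Clec4f, Marco and Ptprc reached at most 0.96 TPM, with none of these 5 called. The 6 endothelial genes summed to 1.43 to 2.78 TPM in control and 0.32 to 0.88 TPM in OGTi, with Tek and Lyve1 called lower, and the 4 cholangiocyte genes to 87.3 to 140.6 and 57.2 to 84.1 TPM. Of the latter, Krt19 made up most and fell (log2 FC -0.66, adjusted p = 0.0462), while Sox9 rose (3.03, adjusted p = 0.00858), from 0.42 to 1.96 TPM in control to 3.03 to 22.9 TPM in OGTi. The log2 difference of Sox9 within the pairs was 1.54, 2.14, 3.04 and 6.03 for replicates 1 to 4, so replicate 4 weighed most. The part of other cells in the chaperone differences was not tested, and in bulk RNA fewer cells of a type and less RNA per cell cannot be told apart.

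OGTi raised a large part of the network. Of the 42 genes, all of which were tested, 19 rose, 1 fell and 22 were not called. The share called higher was 45.2%, against 8.13% of all genes tested, and the share called lower was 2.38%, against 10.2%. The median log2 FC was 0.51, against 0.01 over all genes. Scaled counts, which are counts corrected for library size and composition, did not overlap between groups for 19 of the 42 genes that were higher in OGTi, against 11.5% of all genes, and for none that were lower, against 12.0%. These are not the same 19 genes as those that rose. Stip1, Fkbp4 and Dnajb6 did not overlap and were not called, while Hsph1, Hspe1 and Dnajb4 were called and overlapped. Rises were found among the cytosolic HSP70s (5 of 6), the HSP90s (2 of 2), the J-domain proteins (4 of 7), the small heat shock proteins (3 of 6), the HSP90 co-chaperones (2 of 5), and 1 gene each of the HSP110 family, the mitochondrial chaperonin and the BAG proteins. Neither heat shock factor and none of the 4 CCT subunits was called. Unadjusted edgeR p-values of these genes were 0.201 or higher, and DESeq2 called none of them either. These counts are edgeR calls, and 14 of the 20 called genes kept the call under all 13 other settings tried.

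**Figure D1:**
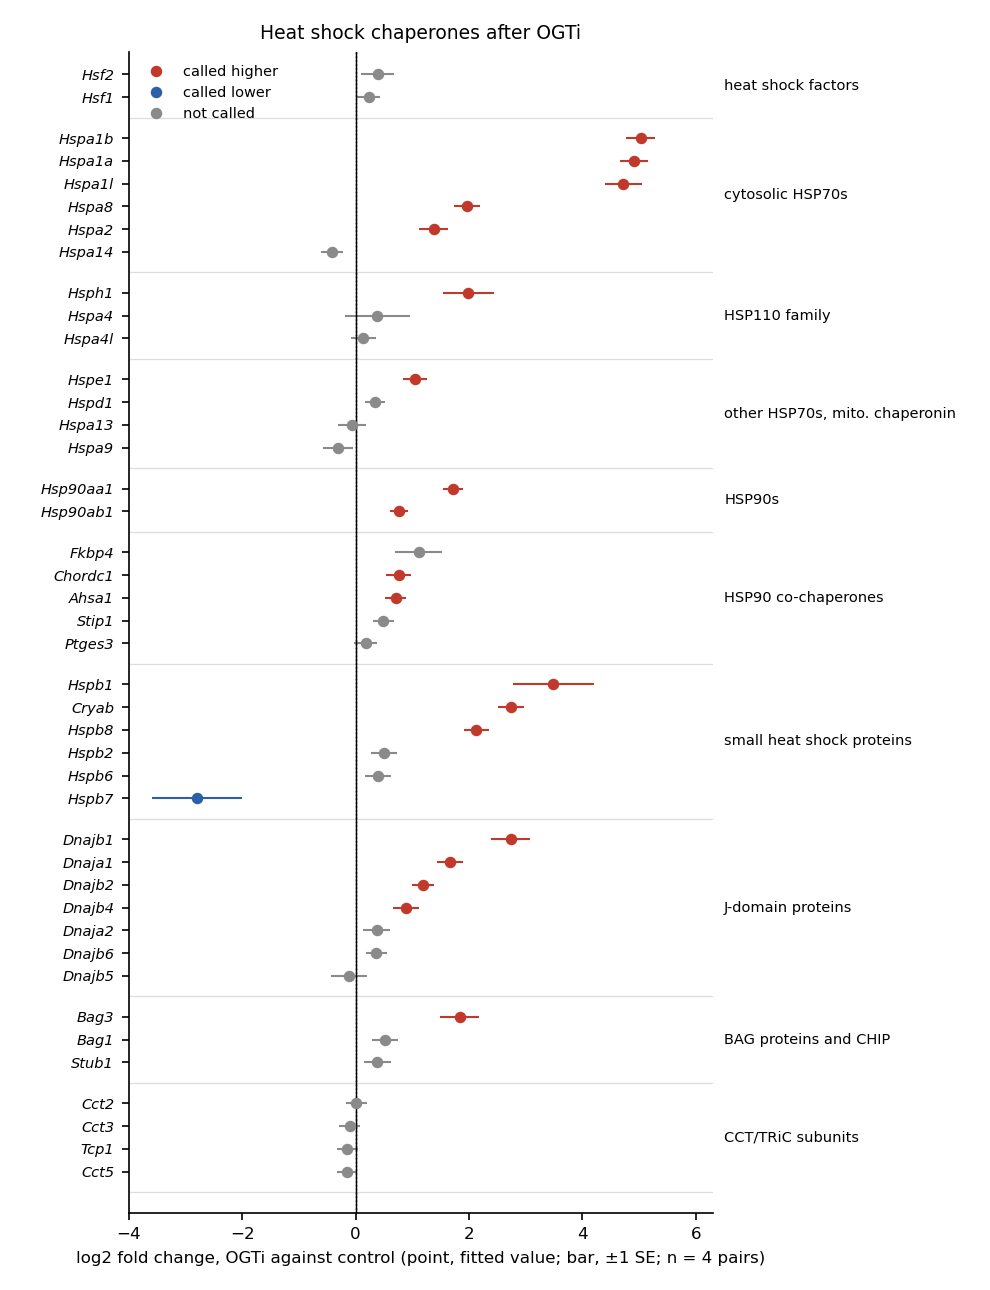
Log2 fold change of each of the 42 genes (x axis, log2 units, OGTi against control; point, fitted value; bar, 1 standard error either side; n = 4 pairs), grouped by role and coloured by call. The 3 Hspa1 genes sit near 5, the small heat shock proteins Hspb1, Cryab and Hspb8 between 2 and 4, and the CCT subunits close to 0.

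The change was visible in the make-up of the mRNA pool. The 42 genes took 1.76% ± 0.128 (SD, n = 4) of all TPM in control and 5.82% ± 2.48 (SD, n = 4) in OGTi. Their summed level was 18190.1, 16124, 16958 and 18997 TPM in control replicates 1 to 4 and 45390.2, 32656, 65192 and 89388 TPM in OGTi replicates 1 to 4. Each OGTi culture was above each control culture, with replicate 4 highest and replicate 2 lowest among the treated ones. The 4 genes of highest mean level over all 8 libraries, Hspa8, Cryab, Hspb1 and Hspa1a, went from 0.877% to 4.40% of TPM, and the other 38 from 0.88% to 1.41%. As the OGTi levels entered that choice, and Hspa1a was chosen through them alone, these shares only describe the pool. Ranked by TPM among all genes of a library, Hspa8 moved from places 7 to 12 in control to 2 and 3 in OGTi, and Cryab from places 33 to 65 to places 4 to 8. Hspa1a moved from places between 679 and 2584 to places between 9 and 134. Among the 10 genes of highest TPM were 0 or 1 chaperones of the network in each control library and 2, 3 or 4 in each OGTi library.

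**Figure D2:**
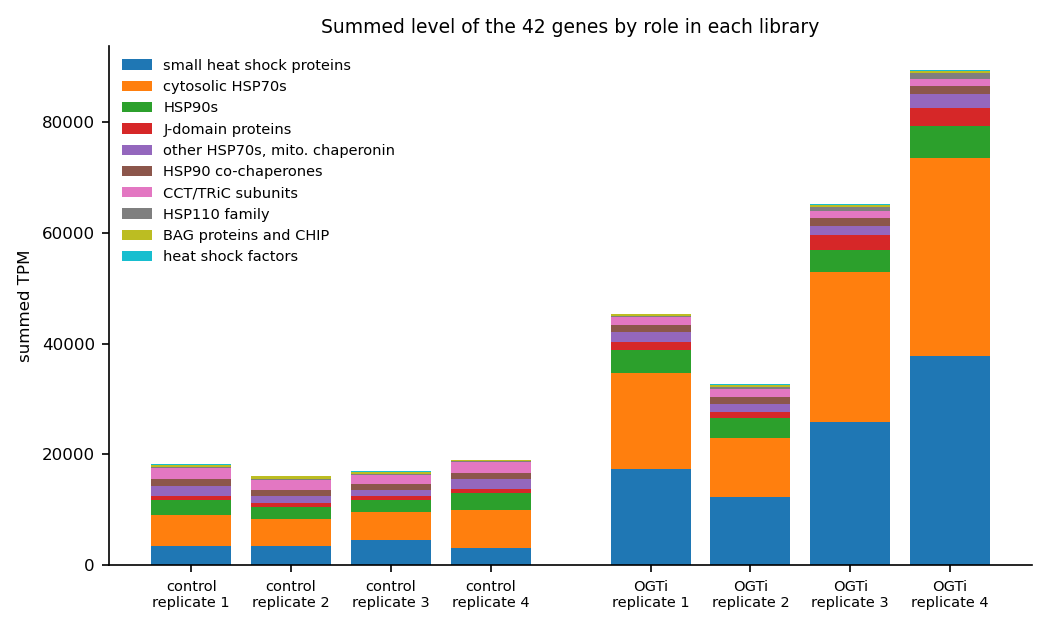
Summed level of the 42 genes in each of the 8 libraries (y axis, TPM, starting at 0), stacked by role. The OGTi bars reach 32656 to 89388 TPM against 16124 to 18997 TPM in control, and the added height lies mostly in the cytosolic HSP70s and the small heat shock proteins.

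Neither heat shock factor was called at the RNA level with all 4 pairs. Hsf1, the main activator of these genes, measured 72.5, 73.1, 70.7 and 61.1 TPM in control replicates 1 to 4 and 48.7, 73.2, 76.7 and 64.4 TPM in OGTi replicates 1 to 4. The groups overlapped, with OGTi replicate 1 lowest of all in TPM. In scaled counts they also overlapped, but control replicate 4 was lowest, at 2315 against 2714 for OGTi replicate 1. The log2 FC of Hsf1 was 0.23 ± 0.20 (SE) with an adjusted p of 0.475. Its sign turned under 2 of the 13 other settings, both of them limma fits on the TPM scale. Hsf2, a second factor that binds the same element, lay between 5.67 and 10.8 TPM in control and between 4.91 and 11.3 TPM in OGTi (log2 FC 0.39 ± 0.29, adjusted p = 0.391). Without replicate 1 Hsf2 was called higher, with a log2 FC of 0.73 ± 0.20 and an adjusted p of 0.049.

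To show the sequence that these factors recognise, promoters of the network were searched for heat shock element letters. The element is made of inverted GAA units 2 bases apart, so that a pair of units reads GAANNTTC or TTCNNGAA on both strands, and 3 units contain overlapping pairs. Windows of 300 bases, from 250 before to 50 after the start of transcription (RefSeq, GRCm38.p6), were at hand for 34 of the 42 genes, and not for Hsf1, Hspa8, Hspa9, Hspa13, Hsp90aa1, Hsp90ab1, Hspb2 and Cryab. A pair of units was found in windows of 17 of the 34 genes (50.0%), against 17.0% of 27025 genes with a window, and 3 units in 5 of the 34 (14.7%), against 0.662%. Among genes of the network that rose, 10 of 15 held a pair, and among those not called 7 of 18 did. The pair was found in 15.4% of the other genes called higher in OGTi, close to its share in all genes tested (15.1%). Of 46 other chaperone network genes with a window, described below, 5 held a pair (10.9%) and 0 held 3 units. A match of letters is a description and does not show that a factor binds there. The following stretches are shown because they carry the element upstream of the genes with the largest rises among those with an upstream match, or because they hold 3 units, with the units in capitals and 12 bases on either side, 5′ to 3′ on the strand of the gene.
Hspa1a, chr17:34972241-34972272, minus strand: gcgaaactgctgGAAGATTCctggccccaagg
Hspa1b, chr17:34959323-34959354, minus strand: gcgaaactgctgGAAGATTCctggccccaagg
Hspb1, chr5:135887790-135887841, plus strand: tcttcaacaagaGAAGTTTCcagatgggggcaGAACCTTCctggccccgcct
Dnaja1, chr4:40722332-40722363, plus strand: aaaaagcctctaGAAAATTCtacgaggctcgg
Hspe1, chr1:55088047-55088088, plus strand: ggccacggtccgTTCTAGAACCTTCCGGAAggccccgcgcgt
Dnajb6, chr5:29735840-29735876, plus strand: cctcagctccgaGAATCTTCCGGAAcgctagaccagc
Hsph1, chr5:149636350-149636381, minus strand: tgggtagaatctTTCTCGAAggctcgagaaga

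The stretches of Hspa1a and Hspa1b were the same, and their 250 bases before the start were 98.8% identical. The element of Hspe1 also lies upstream of Hspd1, which is transcribed from the opposite strand of the same stretch. Hspe1 rose and Hspd1 was not called. Dnajb6 held 3 units and was not called, whereas Dnajb1, Dnajb2, Hspa2, Hspa1l and Ahsa1 rose and held no pair in their windows. In Chordc1, Hsph1, Hspb8 and Bag3 the letters lay partly or wholly after the start of transcription, and those bases are not printed.

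**Figure D3:**
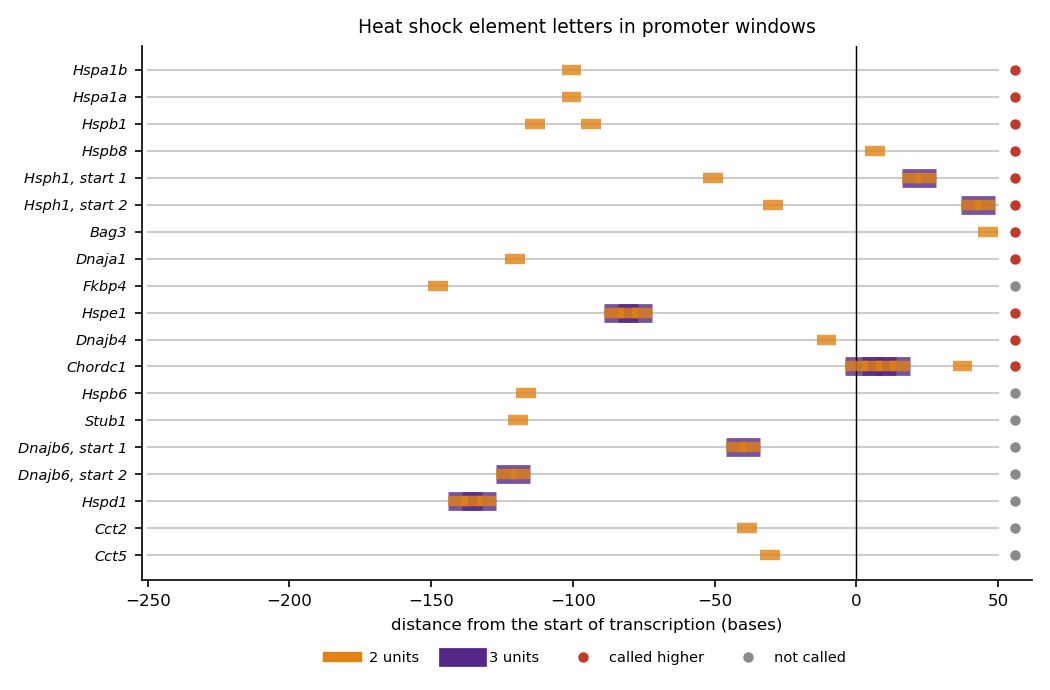
Position of pairs (orange) and of 3 units (purple) of heat shock element letters in the promoter windows of the 17 genes that held any (x axis, bases from the start of transcription), with the call of each gene at the right. Matches upstream of the start lie within 151 bases of it, and the 17 genes include 7 that were not called.

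The stress-inducible HSP70s showed the largest rises of the network. Hspa1a measured 100.1, 60.5, 167 and 289 TPM in control replicates 1 to 4 and 2009, 1014, 5043 and 9141 TPM in OGTi replicates 1 to 4. The lowest OGTi culture was above the highest control culture, and replicate 4 was highest and replicate 2 lowest in both groups. The log2 FC was 4.90 ± 0.25 (SE), a 29.9-fold rise, with an adjusted p of 2.49e-05. Hspa1b, a near-identical copy beside it on chromosome 17, measured 21.9, 13.4, 35.9 and 63.3 TPM in control and 461, 246, 1196 and 2224 TPM in OGTi. Its groups did not overlap either, and the order of the cultures was that of Hspa1a (log2 FC 5.03 ± 0.26, adjusted p = 2.49e-05). Hspa1l, the neighbour whose transcript is best known from testis, went from 1.35, 0.72, 1.62 and 3.13 TPM to 19.1, 9.79, 49.6 and 97.9 TPM (log2 FC 4.72 ± 0.32, adjusted p = 9.36e-05).

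Values of these 3 genes are not independent of each other. In GRCm39 Hspa1b lies at chr17:35175412-35178214 and Hspa1a at chr17:35188166-35191132, both on the minus strand, and Hspa1l at chr17:35191664-35198261 on the plus strand. Of the 100-base windows of Hspa1b, 49.9% also occurred in Hspa1a, and of those of Hspa1l 5.61% did. Counts of Hspa1b were 21.6% to 24.4% of those of Hspa1a in all 8 libraries, and counts of Hspa1l were 0.81% to 1.15% of them. How reads were divided among the copies was not tested, and the separate levels are therefore uncertain. With the counts of the 3 genes summed, an entry added after seeing these shares, the log2 FC was 4.92 ± 0.25 with an adjusted p of 3.32e-05.

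Hspa8, the constitutive HSP70 that also uncoats clathrin vesicles, was the most abundant gene of the network in both groups. It measured 5334, 4639, 4754 and 6321 TPM in control replicates 1 to 4 and 14805, 9378, 20717 and 24248 TPM in OGTi replicates 1 to 4. The groups did not overlap. Its log2 FC was 1.97 ± 0.23 with an adjusted p of 0.000556, so that a gene already among the most abundant rose 3.91-fold. Hspa2, an HSP70 known from spermatogenesis, was low and went from 5.98, 9.21, 7.80 and 7.88 TPM to 10.3, 13.6, 19.4 and 22.95 TPM (log2 FC 1.38 ± 0.26, adjusted p = 0.00532). Its groups did not overlap although the highest control and the lowest OGTi values lay close together. Hspa14, a ribosome-associated HSP70, was the member of the family that was not called (log2 FC -0.42 ± 0.19, adjusted p = 0.165). It was lower in each of the 4 pairs, and was called lower on the TPM scale with limma (adjusted p of 0.0145 and 0.0147 for added constants of 1 and 0.1).

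The HSP110 proteins release ADP from HSP70 and so set its cycle. Hsph1, the stress-inducible member, measured 91.7, 72.6, 82.9 and 133 TPM in control replicates 1 to 4 and 67.8, 219, 484 and 923 TPM in OGTi replicates 1 to 4. In TPM, 3 OGTi cultures were above all controls and replicate 1 was below them, while in scaled counts OGTi replicate 1 lay within the control range and each of the 4 pairs was higher in OGTi. The log2 FC was 1.99 ± 0.45 (adjusted p = 0.0122), and the call was lost without replicate 4 (1.60 ± 0.48, adjusted p = 0.0700) and on the TPM scale with limma (adjusted p of 0.0689 and 0.0548). OGTi replicate 1 was also the library in which most genes fell at least 4-fold below the mean of the rest of their group, 545 of 11826 genes with a mean of at least 50 scaled counts (4.61%), with Hsph1 among them. Hspa4 lay between 103 and 125 TPM in control replicates 1 to 3 but at 14.6 TPM in replicate 4, and between 39.2 and 118 TPM in OGTi (log2 FC 0.38 ± 0.57, adjusted p = 0.703). Without replicate 4 its log2 FC was -0.37 ± 0.24. Hspa4l was not called either (log2 FC 0.14).

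**Figure D4:**
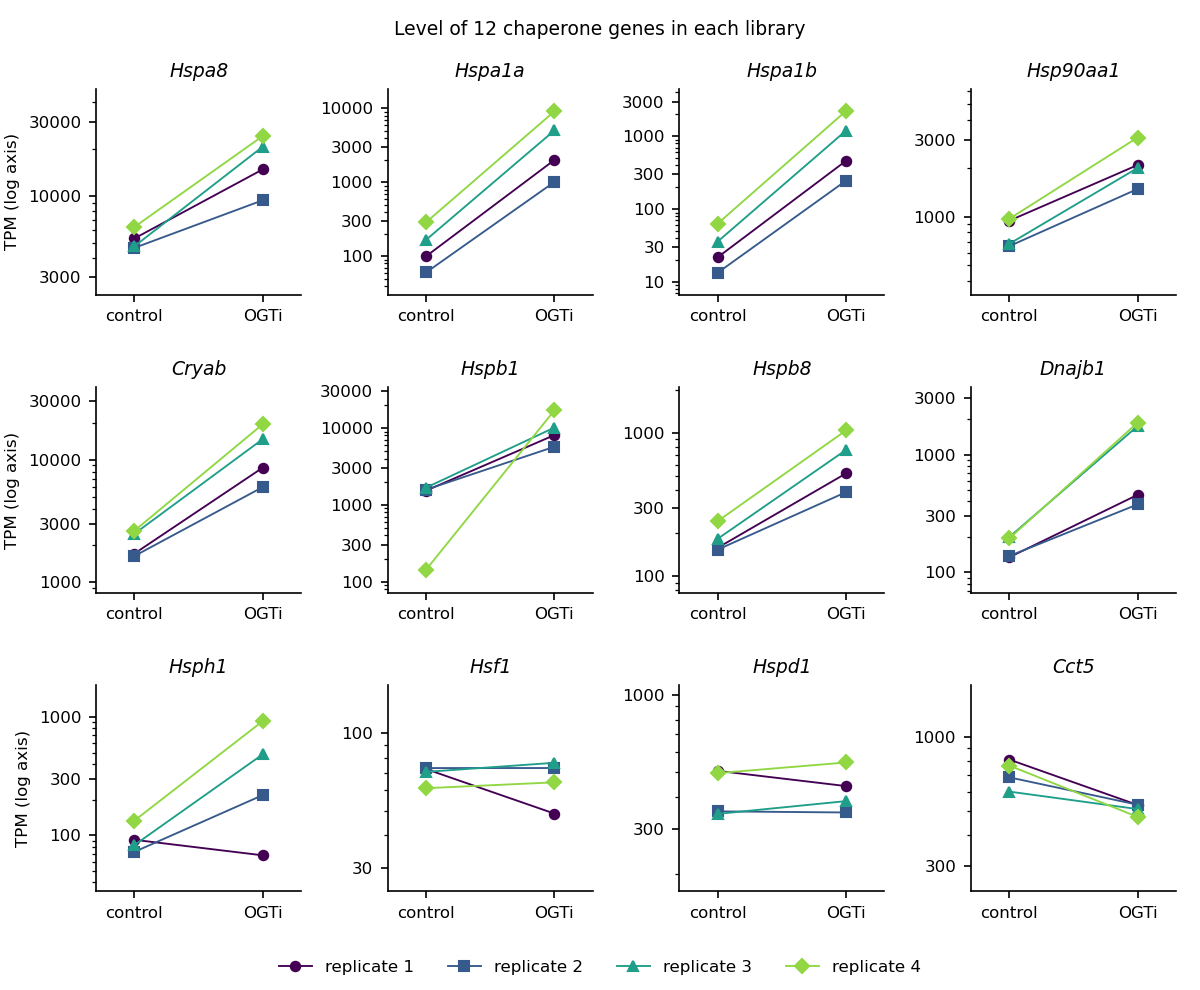
Level of 12 genes of the network in each library (y axis, TPM on a log axis with its own range per gene), with lines joining the control and OGTi cultures of the same replicate number. All 4 lines rise for Hspa8, Hspa1a, Hspa1b, Hsp90aa1, Cryab, Hspb1, Hspb8 and Dnajb1, control replicate 4 stands apart at 143 TPM for Hspb1, and the Hsf1, Hspd1 and Cct5 groups are within 2-fold of each other.

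Of the genes whose products work in other compartments, Hspe1 alone was called. Hspe1, the HSP10 lid of the mitochondrial chaperonin, measured 816, 609, 484 and 709.8 TPM in control replicates 1 to 4 and 1191, 756, 933 and 1513 TPM in OGTi replicates 1 to 4. OGTi replicate 2 lay within the control range while the other three treated cultures were above it, and all 4 pairs were higher in OGTi (log2 FC 1.05 ± 0.22, adjusted p = 0.00828). Hspd1, the HSP60 barrel that HSP10 closes, lay between 342 and 504 TPM in control and between 347 and 544 TPM in OGTi (log2 FC 0.35 ± 0.18, adjusted p = 0.207). Hspa9, the mitochondrial HSP70 mortalin, and Hspa13 had log2 FC of -0.31 ± 0.26 and -0.06 ± 0.24.

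Both cytosolic HSP90 genes rose. Hsp90aa1, the inducible form, measured 945, 657, 679 and 971 TPM in control replicates 1 to 4 and 2094, 1487, 2006 and 3099.9 TPM in OGTi replicates 1 to 4, with no overlap (log2 FC 1.72 ± 0.18, adjusted p = 0.000395). Hsp90ab1, the constitutive form, measured 1729, 1533, 1435 and 2090.3 TPM in control and 2104, 2183, 2101 and 2749.5 TPM in OGTi. Its groups touched but did not overlap, control replicate 4 reaching the level of 3 OGTi cultures. The log2 FC was 0.76 ± 0.16 (adjusted p = 0.00924), and without replicate 3 the adjusted p was 0.0561. Hsp90ab1 was the more abundant form in each control culture, whereas in OGTi replicate 4 Hsp90aa1 was.

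Among the co-chaperones that load or pace HSP90, the rises were small. Ahsa1, which stimulates the ATPase of HSP90, measured 372, 321, 277 and 343 TPM in control replicates 1 to 4 and 433, 405, 415 and 449 TPM in OGTi, with no overlap (log2 FC 0.71 ± 0.19, adjusted p = 0.0251). Chordc1, an HSP90 partner also called morgana, measured 136, 107, 108 and 138 TPM in control and 112, 146, 189 and 233 TPM in OGTi. In TPM, OGTi replicate 1 lay within the control range, while in scaled counts the groups did not overlap (log2 FC 0.76 ± 0.22, adjusted p = 0.0355). Both calls were lost when certain pairs of cultures were left out, and also under other scalings. Without replicate 3 and without replicate 4 the adjusted p of Ahsa1 was 0.147 and 0.0677, and without replicates 2, 3 and 4 in turn that of Chordc1 was 0.0689, 0.187 and 0.127. Without replicate 4 the log2 FC were still 0.73 for Ahsa1 and 0.67 for Chordc1, and both stayed positive under all 13 other settings. With library totals alone the adjusted p was 0.0696 for Ahsa1 and 0.0828 for Chordc1. On the TPM scale with limma (1 added) their log2 FC were 0.38 (adjusted p = 0.0685) and 0.43 (adjusted p = 0.181). Stip1, which bridges HSP70 and HSP90, was the most abundant of these genes, with 453, 353, 403 and 468 TPM in control and 373, 431, 549 and 537 TPM in OGTi. Its groups overlapped in TPM and did not in scaled counts, and it was not called (log2 FC 0.49 ± 0.18, adjusted p = 0.0926). Stip1 was called under 4 other settings, among them DESeq2 (adjusted p = 0.0387) and the fit without replicate 1 (0.0487).

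Fkbp4, the immunophilin of steroid receptor complexes, measured 189.6, 179, 149 and 27.4 TPM in control replicates 1 to 4 and lay between 172 and 211 TPM in OGTi. The replicate 4 value was the only control value far from the treated range, and the gene was not called (log2 FC 1.11 ± 0.41, adjusted p = 0.0905), although DESeq2 called it (adjusted p = 0.0280). Without replicate 4 its log2 FC was 0.54 ± 0.21 (adjusted p = 0.137). Ptges3, the p23 co-chaperone, was not called (log2 FC 0.18 ± 0.21).

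The small heat shock proteins, which bind unfolding proteins without ATP, showed rises in 3 of 6 genes. Cryab, or alpha-B crystallin, measured 1719, 1642, 2495 and 2641 TPM in control replicates 1 to 4 and 8641, 5998, 14775 and 19565 TPM in OGTi replicates 1 to 4. The groups were well apart, with replicates 3 and 4 the higher ones in both (log2 FC 2.74 ± 0.22, a 6.67-fold rise, adjusted p = 0.000201). Hspb8, which works with Bag3 to route damaged proteins to autophagy, went from 158, 154, 183 and 242 TPM to 521, 386, 759 and 1038 TPM, again with no overlap (log2 FC 2.13 ± 0.22, adjusted p = 0.000362).

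Hspb1, which encodes HSP27, measured 1532, 1577, 1675 and 143 TPM in control replicates 1 to 4 and 8082, 5702, 10127 and 16946 TPM in OGTi replicates 1 to 4. All OGTi cultures were above all controls, and control replicate 4 stood more than 10-fold below the other controls. With all cultures the log2 FC was 3.49 ± 0.72 (adjusted p = 0.00824). Without replicate 4 it was 2.63 ± 0.26 (adjusted p = 0.00291), a smaller and more precise value, and without replicate 2 it was 4.16 ± 0.85. Control replicate 4 held 446 of 11832 genes (3.77%) at least 4-fold below the mean of the other controls, among them Hspb1, Hspa4 and Fkbp4, against 0.0937% to 0.932% in control replicates 1 to 3. What set these values apart was not tested. Hspb2, which lies within the span of Cryab on the opposite strand of chromosome 9 and was counted by strand, had a log2 FC of 0.50 ± 0.23 (adjusted p = 0.161), and Hspb6, known from smooth muscle, one of 0.40 ± 0.23 (adjusted p = 0.259). Hspb7, a heart and muscle form, was the 1 gene called lower, from 1, 18, 47 and 78 expected counts in control to 2, 1, 6 and 4 in OGTi (log2 FC -2.80 ± 0.79, adjusted p = 0.0348). The counts were few and overlapped, with control replicate 1 as low as the treated cultures, and the call was lost without the pairing (adjusted p = 0.0536) and without replicate 2, 3 or 4 (0.102, 0.124 and 0.224), and with limma on log2(TPM + 1) (log2 FC -0.57, adjusted p = 0.0746).

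J-domain proteins deliver clients to HSP70 and trigger its ATPase. Dnajb1, the HSP40 that acts with HSP70 in refolding and in shutting off heat shock factor 1, measured 134, 138, 199 and 194 TPM in control replicates 1 to 4 and 455, 378, 1740.2 and 1861 TPM in OGTi replicates 1 to 4. The groups did not overlap, and OGTi replicates 3 and 4 stood well above replicates 1 and 2 (log2 FC 2.73 ± 0.34, adjusted p = 0.000779). Dnaja1, a farnesylated HSP40, went from 214, 202, 166 and 258 TPM to 622, 349, 437 and 794 TPM (log2 FC 1.67 ± 0.23, adjusted p = 0.00125). Dnajb2 went from 36.8, 45.8, 51.7 and 63.1 TPM to 63.0, 86.4, 98.4 and 106 TPM (log2 FC 1.19 ± 0.19, adjusted p = 0.0026). Its highest control and lowest OGTi values were nearly equal in TPM, and both Dnaja1 and Dnajb2 were higher in all 4 pairs. Dnajb4 went from 55.1, 52.4, 63.3 and 72.9 TPM to 72.3, 54.7, 107 and 149.9 TPM, with overlap (log2 FC 0.89 ± 0.23, adjusted p = 0.0228), and was not called without replicate 3 (adjusted p = 0.110), without replicate 4 (0.0963) or on the TPM scale with limma (0.0824 and 0.08). Dnaja2, Dnajb5 and Dnajb6 were not called, with log2 FC of 0.37, -0.12 and 0.37.

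Of the remaining HSP70 partners, Bag3 rose. Bag3, which links HSP70 to small heat shock proteins and autophagy, measured 52.8, 57.9, 41.9 and 45.0 TPM in control replicates 1 to 4 and 78.2, 98.3, 232 and 212 TPM in OGTi. There was no overlap, and OGTi replicates 3 and 4 were again the high ones (log2 FC 1.84 ± 0.35, adjusted p = 0.00555). Stub1, the ubiquitin ligase CHIP, measured 298, 388, 336 and 109.5 TPM in control and 325, 329, 256 and 183 TPM in OGTi, with replicate 4 lowest in both groups (log2 FC 0.38 ± 0.24, adjusted p = 0.304). Bag1, an exchange factor of HSP70, was not called (log2 FC 0.52 ± 0.23, adjusted p = 0.148).

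The CCT/TRiC chaperonin folds actin and tubulin. Cct5 measured 811, 687, 601 and 767 TPM in control replicates 1 to 4 and 531, 532, 511 and 475 TPM in OGTi. In TPM each OGTi value was below each control value, and the same was true of Cct2 (198 to 253 TPM in control and 164 to 195 TPM in OGTi), Cct3 (459 to 599 and 346 to 437 TPM) and Tcp1 (296 to 354 and 231 to 246 TPM). In scaled counts the groups of all 4 genes overlapped. The log2 FC of Cct5 was -0.15 ± 0.18 (adjusted p = 0.623), and those of Cct2, Cct3 and Tcp1 were 0.01, -0.11 and -0.14. Calls and, for Cct2 and Cct3, the direction depended on the scaling, while Cct5 and Tcp1 kept a negative log2 FC under all 13 other settings. With limma on log2(TPM + 1), Cct5 (log2 FC -0.48, adjusted p = 0.0453) and Tcp1 (-0.47, adjusted p = 0.0334) were called lower, and with upper-quartile scaling the log2 FC of Cct2 and Cct3 were 0.14 and 0.02.

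The 19 genes that rose differed in size from pair to pair in a shared way. The median of their log2 differences within a pair, taken on scaled counts with 0.5 added, was 1.68, 1.12, 2.43 and 2.24 for replicates 1 to 4. The smallest difference was that of replicate 2 for 17 of the 19 genes, and the largest was that of replicate 3 for 10 and of replicate 4 for 8. These counts include Hspa1a, Hspa1b and Hspa1l, whose values are not independent. The same counts were not made over all genes called higher, so this order is not shown to be particular to the network. OGTi replicate 4 held the highest treated scaled count for 17 genes, and OGTi replicate 2 the lowest for 17. OGTi replicate 4 stood apart in another respect, with 23746 genes that had a count against 19035 to 20293 in the other libraries, and without replicate 4, 15 genes of the network were called higher, as were 894 of all 18735 genes tested in that fit. Control replicate 4 held the highest control scaled count for 12. OGTi replicate 2 also held 4 genes of the network, Hspa1a, Hspa1b, Hspa1l and Dnajb1, at least 4-fold below the mean of the other treated cultures, among 152 of 11760 genes (1.29%). What set the size of the difference in each pair was not tested.

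**Figure D5:**
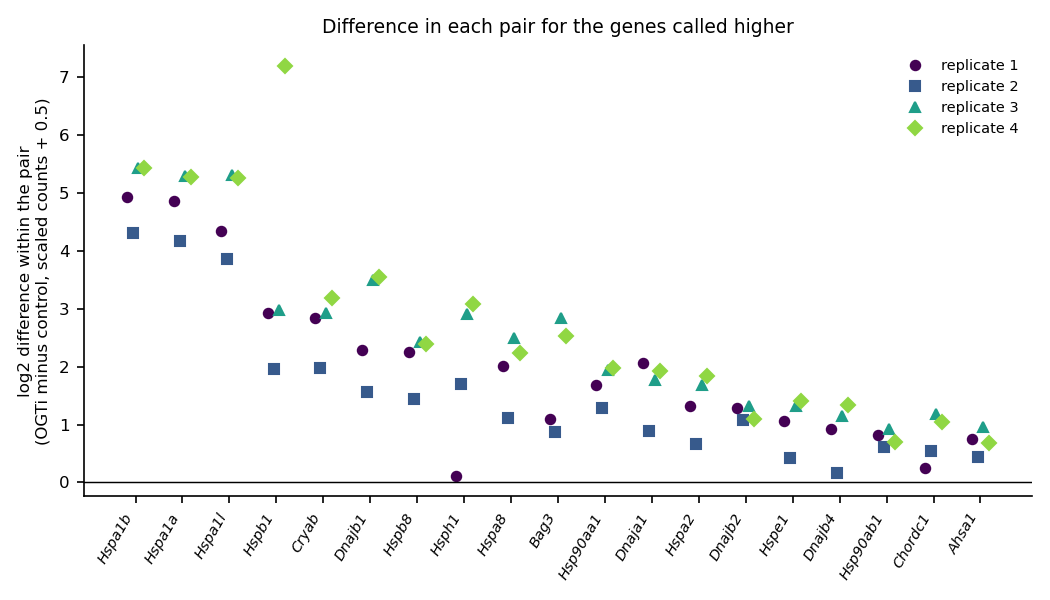
Log2 difference between the OGTi and control cultures of each replicate number for the 19 genes called higher (y axis, log2 of scaled counts with 0.5 added; 1 point per pair), ordered by fitted fold change. Replicate 2 gives the lowest point for 17 genes, and replicate 4 of Hspb1 stands apart at 7.19.

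As a set, other genes of the chaperone network moved less, although all lists were chosen with earlier results of these data known. Of 58 such genes, 11 rose (19.0%, against 8.13% of all genes tested) and 6 fell (10.3%, against 10.2%), and their median log2 FC was 0.14. These counts were 6 and 2 without replicate 3 and also without replicate 4, and with limma on the TPM scale 6 rose and 13 fell, so that the balance turned. Within them, 6 of 9 targets and regulators of heat shock factors rose (66.7%), with a median log2 FC of 1.11. Both values were above those of the 42 genes (45.2% and 0.51). Those that rose included Dedd2 (log2 FC 2.80 ± 0.55), Zfand2a (1.45 ± 0.27), Ubb (1.34 ± 0.25), Ier5 (1.28 ± 0.26) and Cacybp (1.11 ± 0.21). The ubiquitin gene Ubb and the proteasome-associated Zfand2a are known heat shock genes. Dedd2 measured 7.51, 8.71, 8.0 and 1.10 TPM in control replicates 1 to 4 and 23.3, 23.7, 39.3 and 36.0 TPM in OGTi, so that control replicate 4 was again low, and without replicate 4 its log2 FC was 2.11 ± 0.29. Dnaja4, another J-domain gene, went from 6.25, 5.56, 4.86 and 4.36 TPM to 14.2, 13.2, 19.3 and 24.8 TPM, with no overlap (log2 FC 2.03 ± 0.28, adjusted p = 0.00133). Zfand2a went from 33.9, 28.8, 44.7 and 51.5 TPM to 34.9, 68.4, 115 and 183 TPM, OGTi replicate 1 lying within the control range.

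Outside the heat shock targets, calls were few and went both ways, and groups with 1 call are near the shares over all genes (8.13% higher and 10.2% lower). In the other CCT and prefoldin subunits 1 of 10 rose (Cct7) and 1 fell (Pfdn4), and in the other HSP90 co-chaperones 1 of 10 rose (Ppid). Of 11 other J-domain genes 2 rose (Dnaja4 and Dnajb14) and 2 fell (Dnajc7 and Dnajc9), and of 9 other mitochondrial chaperones and proteases Lonp1 rose. In the HSP70 regulators and HSP70-like genes 3 of 9 fell and none rose. These were Hspa12b (log2 FC -2.54 ± 0.56, adjusted p = 0.012), Hspa12a (-1.62 ± 0.28, adjusted p = 0.00353), both distant relatives of HSP70, and Bag2 (-0.96 ± 0.24, adjusted p = 0.022), an inhibitor of CHIP. Hspa12b measured 1.24, 1.08, 1.40 and 0.71 TPM in control and 0.24, 0.41, 0.04 and 0.05 TPM in OGTi, and Hspa12a 3.53, 3.94, 6.21 and 2.72 TPM and 0.58, 1.98, 1.22 and 0.73 TPM. Bag2 measured 52.4, 81.7, 74.7 and 36.8 TPM in control and 20.3, 27.3, 25.2 and 24.0 TPM in OGTi. The groups of these 3 genes did not overlap. Without replicate 4 the adjusted p of Hspa12b was 0.0549, and without replicate 2 or 3 that of Bag2 was 0.104 or 0.119. Serpinh1, the collagen chaperone HSP47 and a heat shock factor target, was not called (log2 FC -0.24).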

How the data were processed

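As described in the labels and methods, the authors made stranded, paired-end libraries after oligo dT enrichment, aligned reads with Bowtie2 2.3.5.1 to mm39 (GRCm39) and counted them with RSEM 1.3.1. The authors deposited expected counts and TPM for each library. Their own comparison (DESeq2 1.36.0; fold changes, p-values) was not used. The methods name a GENCODE annotation, while transcript identifiers in the files are RefSeq ones.

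Expected counts were rounded, and the 19963 genes with a total of at least 10 counts were fitted with edgeR 4.0.16 in R 4.3.3 (TMM, glmQLFit, glmQLFTest, replicate number as a block) and adjusted by the Benjamini-Hochberg method. The standard error was the log2 fold change divided by the root of F. The study's methods state the pairing. Correlations across genes were taken between control and OGTi libraries, on each gene's deviation from its group mean. They were 0.105 to 0.318 for libraries of the same number, against -0.312 to 0.208 for others. Deviations of a gene cancel out within a group, so these ranges are not independent of each other. The code was tested on simulated counts, drawn with a smaller spread than these data, no replicate effect and fewer changed genes. That test checks the code and does not measure its accuracy on these data. DESeq2 1.42.0 and limma 3.58.1 served as alternatives. The 42 genes and all lists were chosen with earlier results of these data known. Values per culture were given for called genes, Hspb1 and the most abundant gene of each role, and of the other genes for the 3 largest rises and falls. The biological coefficient of variation was 0.342, so the spread between cultures set the precision for all but genes of few counts. Promoter windows came from RefSeq (GRCm38.p6), gene positions from GENCODE (GRCm39). Proteins were not analysed here.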

Additional observations from a re-analysis of the deposited data

Results flagged for a closer look

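In 6 of 96 groups of 4 scaled counts, 1 culture lay apart from the other three by Dixon's criterion at 95%, where chance gives about 1 in 20 groups (4.8). Control replicate 4 was low for Hspb1, at 1959 scaled counts against 21533 to 22505, for Hspa4, at 1319 against 9445 to 11047, and for Dedd2, at 76.1 against 577 to 658. OGTi replicate 2 was low for Hspb2, at 771 against 979 to 1006. OGTi replicate 1 was high for Cct3, at 22675 against 14927 to 16001. OGTi replicate 3 was high for Bag2, at 1035 against 953 to 966.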

How the results depend on the processing

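Of 42 genes, 14 were called under all 13 alternatives and 16 under none, 6 called genes lost the call under at least 1 and 6 others gained it, and no called gene changed sign. The count of rising genes was 15 to 21. Without the replicate block, 2991 genes were called in place of 3666, and of the network 19, all shared with the 20, with 0 lower. Leaving out each replicate in turn gave 1905 to 3124 genes in all (843 to 1433 higher, 1062 to 1744 lower), 0 to 1 lower genes of the network, and 8 to 17 other chaperone genes (6 to 10 higher, 2 to 7 lower), with fewer cultures in each fit. The balance of directions moved with scaling. The share of higher calls was 44.3% with TMM, 54.2% with upper-quartile scaling, 30.1% with library totals, 50.2% with the length trend removed, and 25.7% and 26.2% with limma on log2(TPM + 1) and log2(TPM + 0.1), where the median log2 FC of all genes was 0.01, 0.13, -0.19, 0.07, -0.10 and -0.23. With no low-count filter that median was 0.14. Both limma fits called 3456 and 3473 genes lower, 3 and 4 of them in the network, and 6 and 6 other chaperone genes higher and 13 and 13 lower. The cause was not tested. Low counts limit Hspb7 (1 to 78 in control) and Hspa1l (37 to 145).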
